A study of Mus musculus with 56 samples.

Results

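The genes IGF2, H19, DLK1, MEG3, PEG3, PEG10, MEST, PLAGL1, CDKN1C and GRB10, written below by their mouse symbols, are imprinted genes that act on growth. They were chosen by name, with their level in tumours over healthy liver already known, and all 10 were found among the 24034 genes used from a table of 26 bulk RNA-seq libraries of mouse liver. Igf2, Dlk1, Peg3, Peg10, Mest and Plagl1 are transcribed from the paternal copy, and H19, Meg3, Cdkn1c and Grb10 mainly from the maternal copy in most tissues. The tumours carried MYC and nicd, short for the intracellular domain of a Notch receptor, together with luc (luciferase) or lucOS, and were raised in C57BL/6 mice by hydrodynamic tail vein injection with no further treatment. The lucOS construct joins luciferase to model T cell antigens, and luc lacks them. The groups were male lucOS tumours (n = 4), male luc tumours (n = 4), lucOS tumours whose title gives no sex (n = 6), luc tumours whose title gives no sex (n = 6), both called tumours of unstated sex, and healthy liver of the same strain (n = 6), whose label names the same injection method. Ages are not given in the labels. All 8 male tumours come from the animal series AL75, the other tumours from AL51 and AL54, and healthy livers from AL15 and PM5. Male label and series, and tumour and series, therefore cannot be told apart. A tumour library also holds host cells. Animal numbers in the titles are all that marks the libraries as separate animals, so the spread between them may be partly technical.

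Genomic imprinting is the use of 1 parental copy of a gene, set by DNA methylation laid down in the germ line. Igf2 encodes a fetal growth factor, and H19 is a noncoding RNA from the neighbouring gene that hosts miR-675. They share enhancers, and the methylation of a control region between them decides which of them a chromosome uses. Both are abundant in fetal liver and are silenced after birth. Dlk1, a membrane protein related to Notch ligands, and Meg3, a noncoding RNA, form a second pair of this kind. The TPM of both alleles are added together in these data, so the parental copy in use was not measured.

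Igf2 (chr7:142650768-142666816) and H19 (chr7:142575530-142578146) lie on mouse chromosome 7 in GRCm38.p6, with Mir483 inside Igf2 and Mir675 inside H19. The mature microRNAs of both host genes are shown because Igf2 and H19 had the largest tumour differences of the 10 genes. The seed (bases 2 to 8) is in capitals, and the sequences are from RefSeq on GRCm38.p6. None of the 4 share a seed, and mature microRNAs were not measured.
mmu-miR-675-5p: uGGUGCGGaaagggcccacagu
mmu-miR-675-3p: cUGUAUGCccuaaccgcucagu
mmu-miR-483-5p: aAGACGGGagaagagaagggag
mmu-miR-483-3p: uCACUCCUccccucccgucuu

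RefSeq promoter windows (250 bases before to 50 after a start, GRCm38.p6) matched 7 of the 10 genes, in 14 windows, and H19, Peg10 and Cdkn1c had none. They were searched on both strands for the E-box CACGTG, a motif bound by MYC, and for TGGGAA, the core bound by RBPJ, the partner of the Notch intracellular domain. Of 32851 windows, 7.15% held the first and 25.6% the second. The windows below are shown because Igf2 had the largest difference of the 10 genes, Dlk1 and Meg3 varied together and Plagl1 was nearly absent in 1 tumour, with matches in capitals. For Igf2 and Meg3, which have more than 1 window, the one with the most matches is shown. The Meg3 window shown, at chr12:109545148-109545447 (plus strand), held TGGGAA and its reverse complement, 1 time each. The other Meg3 window, at chr12:109540746-109541045 (plus strand), spans the listed start of the gene and held neither motif. The Plagl1 window at chr10:13090582-13090881 (plus strand) held 1 E-box. The Dlk1 window at chr12:109452573-109452872 (plus strand) held none of these letters, and the Igf2 window at chr7:142661222-142661521 (minus strand) held the reverse complement of TGGGAA 2 times. It is 1 of 4 Igf2 windows, and 1 other Igf2 window and 2 overlapping Mest windows held 1 match each. Binding was not measured.
Meg3: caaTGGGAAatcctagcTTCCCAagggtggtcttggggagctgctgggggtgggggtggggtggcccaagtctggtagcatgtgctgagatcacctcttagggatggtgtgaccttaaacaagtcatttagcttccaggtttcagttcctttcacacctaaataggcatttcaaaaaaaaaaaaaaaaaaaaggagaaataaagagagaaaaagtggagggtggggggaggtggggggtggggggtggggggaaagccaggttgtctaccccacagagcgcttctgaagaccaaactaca
Plagl1: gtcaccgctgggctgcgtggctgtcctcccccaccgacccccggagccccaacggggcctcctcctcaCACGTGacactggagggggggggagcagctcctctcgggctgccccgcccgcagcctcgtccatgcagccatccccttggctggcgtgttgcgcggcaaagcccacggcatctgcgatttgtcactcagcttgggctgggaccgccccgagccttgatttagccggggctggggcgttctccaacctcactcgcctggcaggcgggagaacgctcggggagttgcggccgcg
Dlk1: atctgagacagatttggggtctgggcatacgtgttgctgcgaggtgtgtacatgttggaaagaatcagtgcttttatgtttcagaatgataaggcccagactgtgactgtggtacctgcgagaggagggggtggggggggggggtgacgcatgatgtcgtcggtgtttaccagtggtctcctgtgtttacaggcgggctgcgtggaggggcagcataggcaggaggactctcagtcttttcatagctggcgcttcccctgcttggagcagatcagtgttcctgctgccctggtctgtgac
Igf2: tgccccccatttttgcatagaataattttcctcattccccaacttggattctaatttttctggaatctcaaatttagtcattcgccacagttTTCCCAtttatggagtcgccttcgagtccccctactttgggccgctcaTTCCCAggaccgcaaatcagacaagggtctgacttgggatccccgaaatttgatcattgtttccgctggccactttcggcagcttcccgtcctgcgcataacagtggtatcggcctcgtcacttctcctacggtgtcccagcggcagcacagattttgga

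Igf2 and H19 were high in the tumours and low in healthy liver. In TPM (transcripts per 1000000, a level scaled to transcript length and to the same total in every library), Igf2 reached 3886, 2881, 4019 and 3162 in male lucOS tumours and 2701, 2407, 4176 and 1798 in male luc tumours. In tumours of unstated sex, lucOS ranged from 2134 to 3185 TPM with a median of 2810, and luc from 1727 to 3499 with a median of 2123. Healthy livers held 0.976 to 4.50 TPM of Igf2, with a median of 2.58. Every tumour was far above every healthy liver, and the 4 tumour groups overlapped.

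H19 was the higher of the pair in every library. Its level was 13012, 8161, 22768 and 8704 TPM in male lucOS tumours and 14070, 9830, 24011 and 9307 in male luc tumours. It ranged from 8275 to 11797 TPM (median 9564) in lucOS tumours and from 4858 to 13057 (median 7255) in luc tumours of unstated sex, against 9.90 to 20.2 (median 15.4) in healthy liver. Male replicate 3 of both antigen groups stood highest, and the tumour groups otherwise overlapped. H19 was 3.80 ± 1.01 times Igf2 in the 20 tumours (SD), with a range of 2.60 to 5.75. The healthy livers split by series, with ratios of 9.73, 10.1 and 9.99 in AL15 and of 4.29, 4.45 and 4.67 in PM5. The PM5 ratios lay inside the tumour range and the AL15 ratios above it.

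The mean of the 4 tumour group means was 1048.5 times the healthy mean for Igf2 and 728 times for H19. On the log2(TPM + 1) scale these differences were 9.66 and 9.33, ranks 2 and 5 among 15767 genes ordered by rise. They are given with no test because the genes were chosen on this contrast. All genes tested had a median difference of 1.03, with 88.7% called in either direction, 71.8% higher and 16.9% lower, so a higher level alone is common in these TPM. After median ratio scaling that median was 0.08, and the Igf2 difference 8.62. The 10 genes together held 0.717% to 2.84% of all TPM in a tumour and 0.00247% to 0.00401% in a healthy liver. In bulk tissue, more cells of a type and more RNA per cell cannot be told apart.

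**Figure D1:**
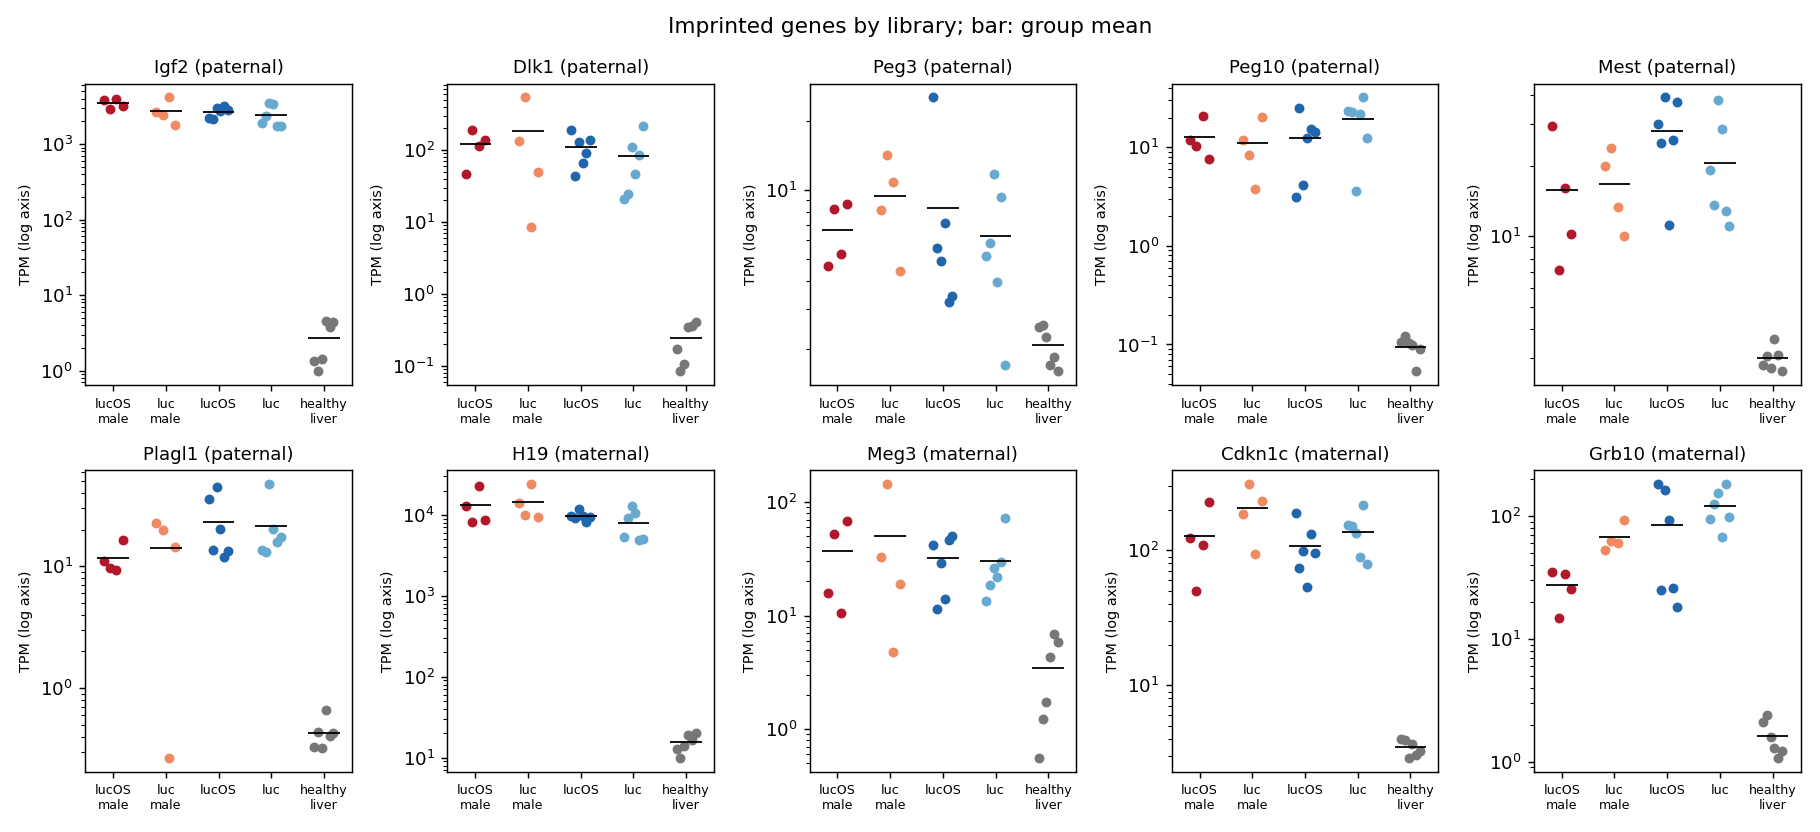
TPM of the 10 imprinted genes on a log axis, 1 point per library, with groups from male lucOS tumours at the left to healthy liver at the right and a bar at each group mean. All 20 tumours lie above all 6 healthy livers for 7 genes, while Peg3, Plagl1 and Meg3 do so in 19 of 20.

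The transcripts beside the pair went the same way. Mir675, the microRNA gene row inside H19, ranged from 12303 to 63899 TPM in tumours and from 31.4 to 60.5 in healthy liver, with an Mir675 to H19 ratio of 2.44 to 2.79 in tumours. These are reads over a short row within H19, so they do not measure the mature microRNA. Mir483 ranged from 23.6 to 90.7 TPM in tumours and from 0 to 0.550 in healthy liver. Igf2os, the antisense transcript over Igf2, ranged from 50.3 to 163.9 TPM in tumours and from 0.00722 to 0.0840 in healthy liver, and whether counting used strand is not given in the sources used here, so its reads and those of Igf2 cannot be told apart. Ins2, the insulin gene beside Igf2, held 4.47 to 80.8 TPM in tumours and is listed at 0 in all 6 healthy livers.

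Dlk1 differed more between tumours than Igf2 did. It held 46.0, 188, 113 and 138 TPM in male lucOS tumours, and 132, 539, 8.53 and 48.8 in male luc tumours. It ranged from 43.5 to 189 TPM (median 111) in lucOS tumours and from 21.2 to 215 (median 65.4) in luc tumours of unstated sex, against 0.0842 to 0.409 (median 0.261) in healthy liver. Every tumour was above every healthy liver. Male luc replicate 2 stood highest of the 20 tumours and male luc replicate 3 lowest.

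Meg3 followed Dlk1 from tumour to tumour. It held 15.8, 51.9, 10.6 and 68.7 TPM in male lucOS tumours, 32.5, 144, 4.76 and 18.9 in male luc tumours, 11.4 to 50.4 (median 35.5) in lucOS tumours and 13.5 to 72.3 (median 24.2) in luc tumours of unstated sex. Healthy livers held 0.556 to 6.91 TPM (median 3.03), and male luc replicate 3 lay inside that range. Meg3 was 0.364 ± 0.167 times Dlk1 in the 20 tumours and 13.4 ± 5.53 times in the 6 healthy livers (SD), so the order of the pair turned around. The ratio ranged from 0.0935 to 0.778 in tumours and from 3.25 to 19.6 in healthy liver. The healthy ratios rest on Dlk1 levels near the floor, 0.0842 to 0.409 TPM, so their size is uncertain. In the Dlk1 to Mirg interval, 25 of 60 microRNA gene rows averaged at least 1 TPM in tumours and 6 of 60 in healthy liver. The same share over all microRNA gene rows was not counted, so a rise particular to this interval was not shown. Of all genes tested, 71.8% were called higher in tumours as deposited.

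Cdkn1c, an inhibitor of cyclin-dependent kinases, and Grb10, an adaptor that restrains insulin and IGF receptor signalling, were maternally expressed genes with clear levels in tumours. Cdkn1c ranged from 49.8 to 309.9 TPM in tumours and from 2.90 to 3.99 in healthy liver, and Grb10 from 15.0 to 182 in tumours and from 1.07 to 2.40 in healthy liver. Grb10 was 35.3, 15.0, 34.0 and 25.6 TPM in male lucOS tumours and 53.5, 62.7, 60.5 and 92.6 in male luc tumours, and the libraries of these groups did not overlap. In lucOS tumours of unstated sex it ranged from 18.1 to 182 TPM (median 59.7), and in luc tumours from 67.4 to 182 (median 112). Male lucOS tumours also lay below every luc tumour of unstated sex. How many of all genes separate these groups in the same way was not counted. No antigen difference in Grb10 passed the threshold of the tests given below.

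Plagl1, a zinc finger transcription factor known to control other imprinted genes, held 11.1, 9.67, 9.33 and 16.5 TPM in male lucOS tumours and 22.7, 19.8, 0.266 and 14.4 in male luc tumours. It ranged from 11.9 to 44.8 TPM (median 17.0) in lucOS tumours and from 13.1 to 47.5 (median 16.6) in luc tumours of unstated sex, against 0.321 to 0.660 (median 0.417) in healthy liver. Male luc replicate 3 lay below every healthy liver and no other tumour did.

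Peg10, a gene derived from a retrotransposon and needed in the placenta, held 3.12 to 32.2 TPM in tumours and 0.0534 to 0.122 in healthy liver, with every tumour above every healthy liver. Mest, related to hydrolases, held 7.19 to 39.2 TPM in tumours and 2.64 to 3.64 in healthy liver. Peg3, a zinc finger gene, held 1.71 to 25.5 TPM in tumours and 1.60 to 2.56 in healthy liver, where luc replicate 6 lay inside the healthy range.

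Mean tumour levels over mean healthy levels were 504 times for Dlk1, 146 for Peg10, 46.4 for Grb10, 41.6 for Cdkn1c, 41.0 for Plagl1, 10.9 for Meg3, 6.75 for Mest and 3.69 for Peg3. On the log2(TPM + 1) scale the paternally expressed genes had a median difference of 3.47 (n = 6, 1.33 to 9.66) and the maternally expressed ones 4.69 (n = 4, 2.91 to 9.33). The ranges overlapped, and no test was made. Of the 10 genes, 7 had all tumours above all healthy livers, beside 54.8% of all genes tested, while 9.83% had all tumours below all healthy livers. Peg3 stood closest to the median of all genes, with a difference of 1.33 as deposited, 0.34 after median ratio scaling and 0.01 after quantile normalization.

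Healthy livers of the series PM5 averaged 4.20 ± 0.387 TPM of Igf2 and 5.69 ± 1.31 of Meg3, and those of AL15 averaged 1.23 ± 0.226 and 1.18 ± 0.599 (SD, n = 3 each). Against AL15 alone the Igf2 difference was 10.27 and against PM5 alone 9.05.

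Antigen and male label were compared among tumours with limma on log2(TPM + 1), adjusting p over all 15453 genes tested. No imprinted gene of the 10 was called, at an adjusted p under 0.05, for lucOS over luc in males (0.349% of all genes called, 0.259% higher and 0.0906% lower), for lucOS over luc of unstated sex (0% called), for male over unstated sex in lucOS (24.4% called) or in luc tumours (16.9% called), or for the interaction (0% called). Where limma called 0 genes, 385 had an unadjusted p under 0.05 for lucOS over luc of unstated sex and 1842 for the interaction. Of the 10 genes, unadjusted p was under 0.05 for Grb10 in the first comparison, for Mest in the male lucOS and for H19 in the male luc comparison.

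Grb10 had the widest difference between antigen groups. The limma log2 fold change of lucOS over luc was -1.30 (SE 0.60) in males at an adjusted p of 0.270, with 4 of 4 male lucOS libraries below the male luc median. In tumours of unstated sex the change was -0.98 (SE 0.49) at an adjusted p of 0.997. For male over unstated sex, H19 had a log2 fold change of 0.84 (SE 0.33) in luc tumours at a limma adjusted p of 0.0843. Mest had -0.88 (SE 0.40) in lucOS tumours at a limma adjusted p of 0.113. None of these passed the threshold, and the interaction of Grb10 was -0.32 (SE 0.77, limma adjusted p 0.883).

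**Figure D2:**
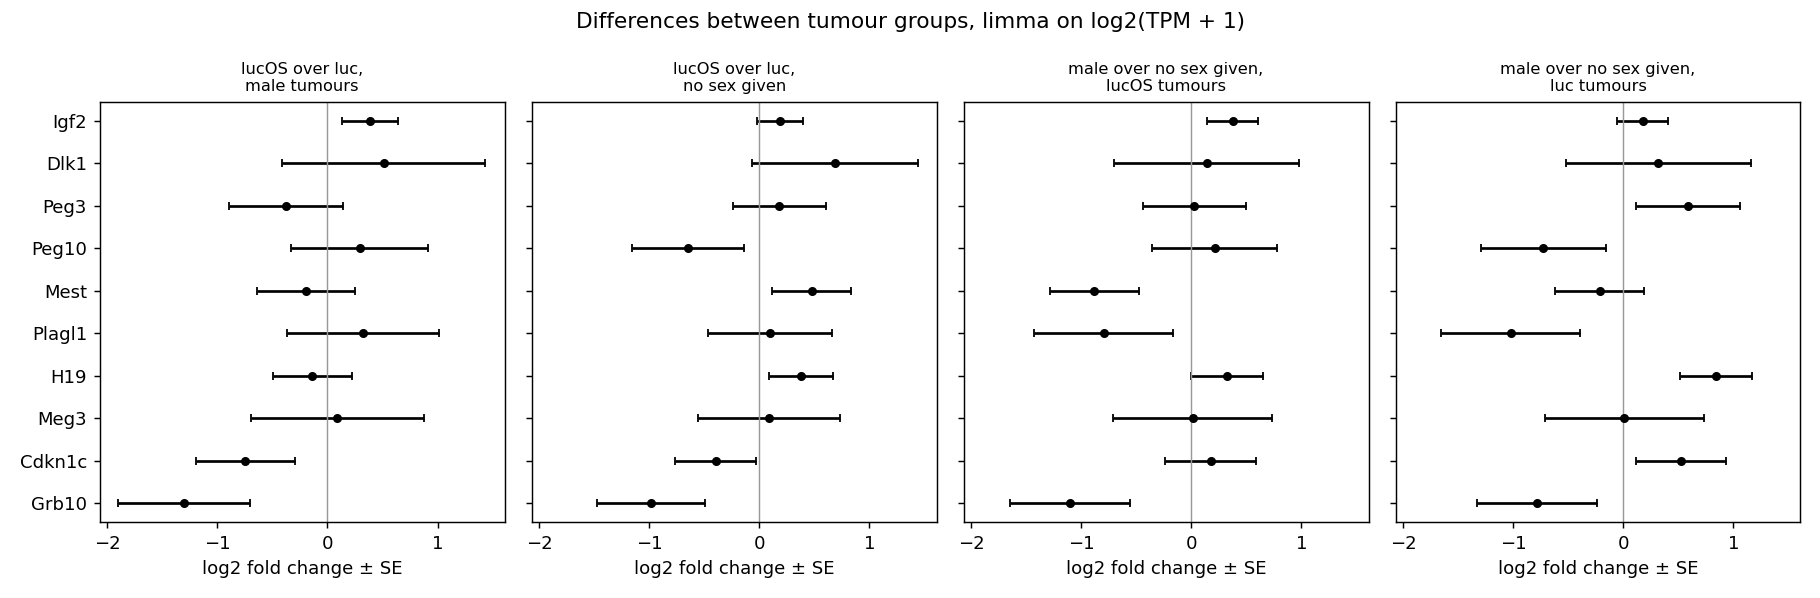
Log2 fold change with its SE from limma on log2(TPM + 1) for each imprinted gene, in 4 comparisons of tumour groups; 0 marks no difference. Grb10 lies at -1.30 for lucOS over luc in males and -1.10 for male over unstated sex in lucOS tumours, and Igf2 stays within 0.39 of 0.

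Igf2 was the steadiest of the 10, and its differences lay between 0.18 and 0.39 in the 4 comparisons. Its standard deviation within tumour groups was 0.38 on the log2 scale, and that of H19 was 0.54. Dlk1 (1.40), Meg3 (1.20), Plagl1 (1.05) and Peg10 (0.94) varied most, beside a median of 0.24 over 11740 genes of at least 5 TPM. Their ratios of highest to lowest tumour were 63.2 for Dlk1, 30.2 for Meg3, 179 for Plagl1 and 10.3 for Peg10. For Igf2 the ratio was 2.42.

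Other imprinted genes were also mostly higher in tumours as deposited. Of 14 tested paternally expressed genes 12 were higher and 1 lower, and of 18 maternally expressed genes 15 were higher and 3 lower, beside 71.8% and 16.9% of all genes. After median ratio scaling these became 7 higher and 3 lower, and 9 and 6, and after quantile normalization 6 and 3, and 9 and 6. Airn, the noncoding RNA that silences the paternal Igf2r and lies antisense to it, was 3.41 higher by limma (adjusted p 3.02e-17, above the healthy median in 20 of 20 tumours). Snurf was 2.07 higher (adjusted p 7.54e-16), Snrpn 2.05 (8.5e-16) and Impact 1.97 (9.52e-14) by limma, also in 20 of 20. Snurf and Snrpn share a locus and Airn overlaps Igf2r, so their reads may be partly shared. Of the maternally expressed genes, Igf2r was 3.58 higher, Ppp1r9a 2.77 and Nap1l4 1.79 by limma, all 3 called. Tfpi2, an inhibitor of proteases, was 3.92 lower (limma log2 fold change -3.92, adjusted p 1e-14) and Slc22a18, a transporter beside Cdkn1c, 4.21 lower (-4.21, adjusted p 9.81e-13), each in 20 of 20 tumours.

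The receptors and binding proteins around Igf2 moved in both directions. Of 17 tested genes, 10 were higher and 5 lower, with 8 and 6 after median ratio scaling and 7 and 6 after quantile normalization, beside 71.8% of all genes higher and 16.9% lower as deposited. Igf2r, the receptor that clears the ligand, held 110 to 215 TPM in tumours and 7.93 to 16.3 in healthy liver (log2 fold change 3.58, SE 0.13, limma adjusted p 3.96e-18). Igfbp5, a binding protein, held 418 to 3974 TPM in tumours and 1.81 to 5.59 in healthy liver (8.49, limma adjusted p 1.13e-20). Stc2, an inhibitor of the protease that frees IGFs from their binding proteins, held 157 to 1300 TPM in tumours and 0.0904 to 0.265 in healthy liver (8.44, limma adjusted p 3.33e-20). Igfals, which holds IGFs in the circulation, held 0.383 to 7.08 TPM in tumours and 90.0 to 175.5 in healthy liver (-5.55, limma adjusted p 4.76e-17).

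A list of imprint maintenance and DNA methylation genes, which holds methyltransferases, the Tet enzymes that oxidise methylcytosine, Polycomb genes and DNA binding proteins, had 16 of 17 tested members higher in tumours and 1 lower, beside 71.8% and 16.9% of all genes. After median ratio scaling 11 were higher and 4 lower, beside 6832 and 6354 of all 15767 genes. Dnmt1, which copies methylation at replication, held 37.6 to 91.1 TPM in tumours and 3.18 to 4.48 in healthy liver (log2 fold change 3.84, limma adjusted p 3.75e-20). Dnmt3a (2.85), Trim28 (2.90) and Ctcf (1.76), which at the control region insulates Igf2 from the enhancers it shares with H19, were also higher by limma, with adjusted p of 1.3e-19, 9.95e-20 and 1.87e-19 and all 20 tumours above the healthy median. A list of Igf2 mRNA binding proteins and LIN28 axis genes, which includes the chromatin proteins Hmga1 and Hmga2, had 5 of 7 tested members higher and 0 lower, a share higher near the 71.8% of all genes. Igf2bp3 was among them (2.09, limma adjusted p 2.21e-06). Of 5 genes for silencers of fetal liver genes and their targets 3 were higher and 1 lower, also near the 71.8% and 16.9% of all genes. Gpc3 was 5.16 higher (limma adjusted p 1.77e-12, in 20 of 20) and Zbtb20, a repressor of Afp, 0.55 lower (log2 fold change -0.55, limma adjusted p 0.000584, in 19 of 20). Zhx2, also a repressor of Afp, went the other way, with 11.05 to 34.7 TPM in tumours and 6.06 to 9.42 in healthy liver. Afp itself held 0.115 to 74.0 TPM in tumours and 1.80 to 4.66 in healthy liver.

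Proliferation and marker genes differed beside these results. Summed TPM of 5 proliferation genes were 209 to 723 in tumours and 3.58 to 12.4 in healthy liver. The 8 hepatocyte markers summed to 263 to 14435 TPM in tumours and 120533 to 166687 in healthy liver. The part of cell makeup in any of the results was not tested.

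The male tumours differed from the others in some of these genes. In lucOS tumours 3 of 14 other paternally expressed genes were higher and 2 lower, and 3 of 18 maternally expressed were higher, beside 15.2% and 9.29% of all genes. In luc tumours 0 were higher and 2 lower of the paternally expressed genes, and 1 higher and 1 lower of the maternally expressed ones, beside 8.94% and 7.97%. Kcnq1ot1, the noncoding RNA of the Cdkn1c domain, was lower in male lucOS (limma log2 fold change -0.47, adjusted p 0.0378) and in male luc tumours (-0.76, adjusted p 0.00344), below the other group's median in 4 of 4 males each. Mcts2 was lower in male lucOS (-0.77, limma adjusted p 0.000561) and in male luc tumours (-0.76, limma adjusted p 0.000829), again in 4 of 4 each. Sgce, the neighbour of Peg10, was higher in male lucOS tumours (1.18, limma adjusted p 0.018, 4 of 4), as were Zrsr1 (0.78, limma adjusted p 0.00533) and Peg13 (0.95, 0.0142). Male lucOS replicate 4 stood highest in each. It held 50.2 TPM of Sgce beside 24.4 to 35.6 in the other male lucOS tumours. For Zrsr1 it held 24.2 beside 11.7 to 15.3, and for Peg13 18.6 beside 6.09 to 8.82. These calls were not repeated without that library. Among maternally expressed genes, Osbpl5 was 0.73 higher in male lucOS tumours (limma adjusted p 0.0187). Kcnq1 (0.85) and Ppp1r9a (0.68) were called as well, but not after either scaling, which left 1 of 18 higher.

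In luc tumours 1 library decided several of these calls. Slc22a3 was 1.68 higher in male luc tumours (limma adjusted p 0.00699) and Asb4 1.76 lower (log2 fold change -1.76, limma adjusted p 0.0295). Without male luc replicate 3, Slc22a3 was not tested and Asb4 stood at -0.96 (limma adjusted p 0.111). Irs2 and Igfbp6 were 1.11 and 1.41 higher (limma adjusted p 0.0326 and 0.0336), with adjusted p of 0.0864 and 0.132 without that library. Zbtb20 was lower in male luc tumours (-0.90, limma adjusted p 0.00435), and Elavl1, which binds mRNA, in male luc (-0.74, limma adjusted p 0.000223) and male lucOS tumours (-0.62, 0.000835), all in 4 of 4.

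The list of Igf2 mRNA binding and LIN28 axis genes had 2 of 7 tested members lower in male lucOS tumours, Elavl1 and Igf2bp3, beside 9.29% of all genes. Igf2bp3, an RNA binding protein of fetal tissue, held 1.06 to 3.12 TPM in male lucOS tumours and 3.14 to 20.6 in lucOS tumours of unstated sex (log2 fold change -1.63, limma adjusted p 0.0273, below the median in 4 of 4). Male luc tumours held 7.86 to 23.5 TPM, and lucOS over luc in males missed the threshold (-2.23, limma adjusted p 0.0844), and the interaction was -3.12 (limma adjusted p 0.332). Of the IGF genes 4 of 17 were higher in male lucOS tumours, beside 15.2% of all genes, Insr by 0.84 (limma adjusted p 0.00317) and Irs2 by 1.40 (0.00767), Igfals by 1.32 (0.013) and Igfbp4 by 1.41 (0.0233), each in 4 of 4. Irs2 was 34.3 TPM in male lucOS replicate 4 and 6.22 to 11.3 in the other male lucOS tumours, and its call was not repeated without that library. Healthy liver held 90.0 to 175.5 TPM of Igfals and 1648 to 1873 of Igfbp4. The 8 hepatocyte markers summed to 958 to 14435 TPM in male lucOS tumours and 417 to 4601 in lucOS tumours of unstated sex, with a median log2 fold change of 1.84, 8 of 8 positive and 1 called. Their part in these 4 calls was not tested. Of 16 tested imprint maintenance and DNA methylation genes, 2 were higher in male lucOS tumours and 1, Dnmt3b, lower (-0.81, limma adjusted p 0.0159), near the 15.2% and 9.29% of all genes, and 0 were higher and 4 lower after median ratio scaling. In male luc tumours 0 of the 16 were called. Zhx2, a repressor of Afp and H19 in liver, was 0.85 higher in male lucOS tumours (limma adjusted p 0.00368). For lucOS over luc no gene of the lists was called, in males or in tumours of unstated sex.

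Markers of other cell types differed between these groups. The sum of 3 lung epithelial genes was 13.7 to 48.4 TPM in male lucOS and 9.28 to 28.9 in male luc tumours, against 0 to 0.489 in tumours of unstated sex. The sum of 4 B cell genes was 12.2 to 30.4 and 10.6 to 20.4 TPM in the male groups, against 0.531 to 2.39 in the others. Their part in the male results was not tested.

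Igf2 and H19 varied together from tumour to tumour, as did Dlk1 and Meg3. With each library centred on its group mean on the log2 scale, Pearson's r of Igf2 with H19 was 0.84 over 20 tumours, 0.83 over the 12 of unstated sex and 0.87 over the 8 males (Spearman's rho 0.81 over 20). It was 0.80 without the 2 libraries farthest from the median of Igf2. Dlk1 with Meg3 had r of 0.88, 0.85 and 0.90 (rho 0.79 over 20), and 0.76 without its 2 farthest libraries. Both values of a point come from 1 library and share its composition and depth, which TPM do not show. The correlations are a description with no p, since they were part of how the genes were chosen.

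**Figure D3:**
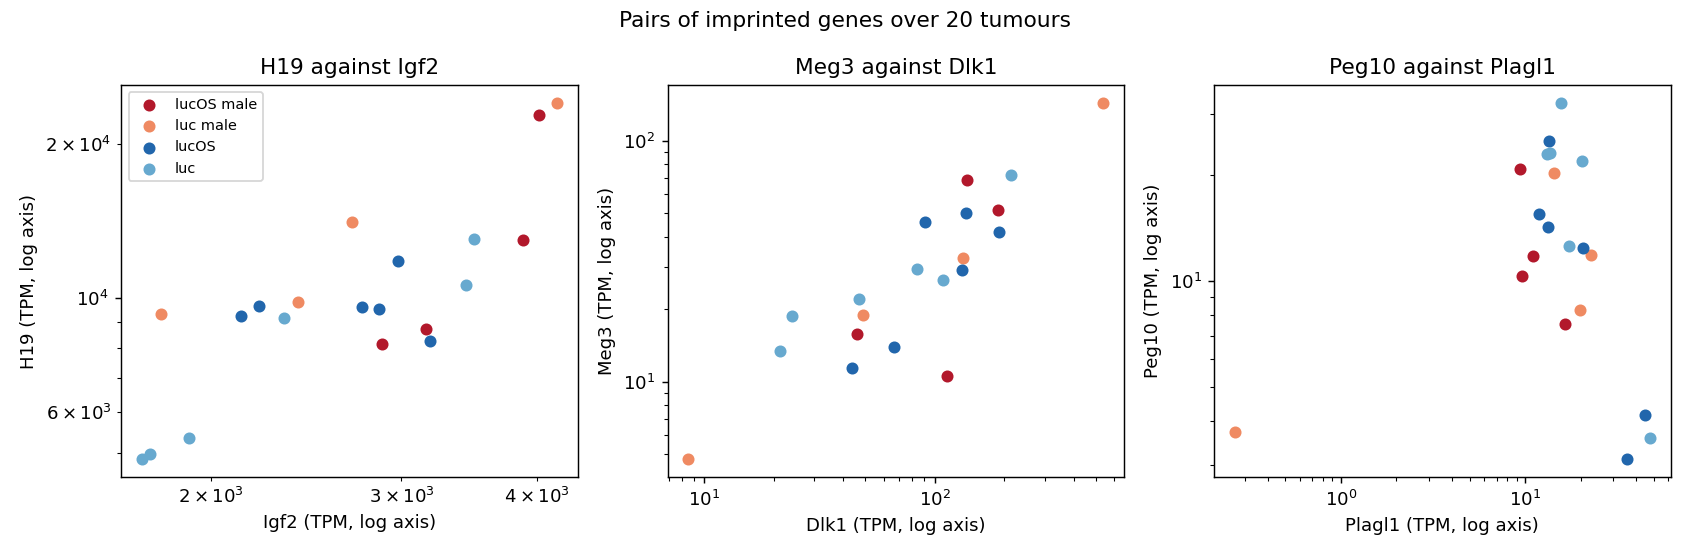
TPM on log axes of H19 against Igf2, Meg3 against Dlk1 and Peg10 against Plagl1, 1 point per tumour, coloured by group. The tumour with the lowest Igf2, 1727 TPM, also had the lowest H19, 4858 TPM, and 1 tumour stands apart at a Plagl1 level of 0.266 TPM.

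Both pairs join a paternally with a maternally expressed gene, and some neighbours on the chromosome followed the listed genes. H19 with Mir675 had r of 0.997, Meg3 with Rian, a noncoding RNA downstream of it, 0.96 and with Mirg 0.94, Dlk1 with Rian 0.92, and Peg3 with Peg3os 0.98 over 20 tumours. Rows that overlap or lie in the same host RNA share reads, so Mir675 with H19 and Peg3os with Peg3 are partly 1 measurement. Igf2 with Ins2 had r of 0.73 over all tumours, 0.90 in those of unstated sex and 0.36 in males. Peg10 with Sgce had r of 0.65 over 20, 0.84 in those of unstated sex and -0.18 in males. Rtl1, between Dlk1 and Mirg, had r of 0.27 with Dlk1 and 0.31 with Meg3 in tumours of unstated sex, and 0.97 and 0.845 in males. Cdkn1c with Phlda2 had r of 0.09 over 20 tumours.

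Over the 45 pairs of the 10 genes the median r was 0.07, with 15 paternal pairs at 0.03, 6 maternal pairs at 0.02 and 24 pairs across the classes at 0.08. Of the 7 pairs with r past 0.5 in size, 2 kept that size and sign both in tumours of unstated sex and in males, and these were Igf2 with H19 and Dlk1 with Meg3. Peg10 with Plagl1 had r of -0.19 over 20 tumours, -0.91 in those of unstated sex and 0.58 in males, and -0.89 over the 19 tumours without male luc replicate 3. Over the 18 tumours without the 2 farthest from the median of Peg10 it was 0.09. In luc replicate 3, lucOS replicate 1 and lucOS replicate 3, Plagl1 was 47.5, 36.0 and 44.8 TPM and Peg10 was 3.58, 3.12 and 4.16.

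**Figure D4:**
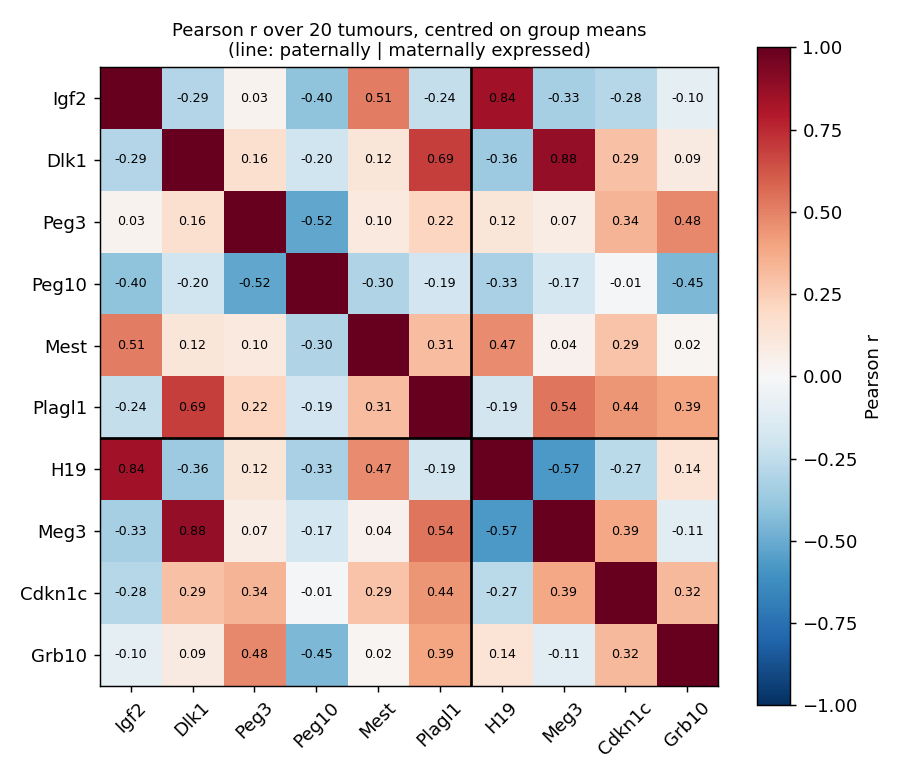
Pearson's r between the 10 imprinted genes over 20 tumours, centred on group means; the lines divide paternally from maternally expressed genes. Igf2 with H19 (0.84) and Dlk1 with Meg3 (0.88) are the highest values, and the blocks of one class hold none above 0.69.

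Of 11739 genes of at least 5 TPM, H19 ranked 22 in likeness to Igf2 by Spearman's rho and Igf2 ranked 96 in likeness to H19, while Meg3 ranked 18 in likeness to Dlk1 and Dlk1 ranked 112 in likeness to Meg3. Leaving out the 10 genes, microRNA genes, pseudogenes and predicted genes, those most like Igf2 were Mpp5 (rho 0.91), Stt3a (0.89), Elf4 (0.88), Faf2 (0.86) and Erbb2 (0.85). Most like H19 were Dcp2 (0.94), Pak4 (0.93), Zfp280b (0.91), Armcx2 (0.91) and Dynlt1f (0.91).

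Other measures moved with these genes across the 20 tumours. Each imprinted gene was set beside every marker list, and only some of the values are given here. The summed stellate cell and fibroblast markers had r of 0.74 with Meg3, 0.50 with Dlk1 and -0.52 with H19, and the proliferation markers -0.70 with Meg3 and 0.67 with H19. In tumours of unstated sex the stellate cell and fibroblast values were 0.68, 0.40 and -0.30, and in males 0.905, 0.67 and -0.83. Such values were not particular to that list. Macrophage markers had r of 0.66 with Meg3 and 0.55 with Dlk1, and endothelial markers 0.61 and 0.41. In tumours of unstated sex the macrophage values were 0.36 and 0.24, and the endothelial values 0.37 and 0.18. The proliferation values were -0.82 and 0.54 in tumours of unstated sex and -0.69 and 0.775 in males. Smooth muscle markers had r of 0.67 with Plagl1 and -0.60 with Igf2. These were 0.495 and -0.24 in tumours of unstated sex, and 0.73 and -0.92 in males. Male luc replicate 3 was lowest of the 20 tumours in these markers (386 TPM) and in Plagl1 (0.266 TPM), and highest in Igf2. In the other male luc tumours Plagl1 was 22.7, 19.8 and 14.4 TPM beside 1620, 1133 and 4749 TPM of these markers. The smooth muscle r lean on that library and were not computed without it. Grb10 had r of -0.75 with the B cell markers, -0.89 in tumours of unstated sex and -0.78 in males. In tumours of unstated sex the B cell markers summed to only 0.531 to 2.39 TPM, near the floor, so the -0.89 is uncertain. With the stellate cell and fibroblast markers the r of Grb10 was -0.55, with -0.67 in tumours of unstated sex and -0.16 in males. The part of these markers in the pairs and in the Grb10 differences was not tested.

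Male luc replicate 3 stood apart in several of the 10 genes. It had the lowest Plagl1, Dlk1 and Meg3 of the 20 tumours and the highest Igf2 and H19, with 386 TPM of smooth muscle markers beside 1049 to 4749 in the other tumours. Without it r of Igf2 with H19 was 0.79 and of Dlk1 with Meg3 0.82.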

How the data were processed

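Bulk RNA-seq of 26 libraries was taken from a table of TPM made and deposited by the authors, which sums to 1000000 in each library and holds no depth. Per the submitters' processing notes, TopHat2, featureCounts, DESeq2 and the build mm10 were named, without roles or versions. Neither strand setting nor annotation is stated there. Libraries had 16921 to 19172 genes above 0 TPM. Of 24063 rows, 27 with names turned into dates (at most 0.224% of TPM) and 2 sharing a name were left out, leaving 24034. The TCR libraries (15) and GEX libraries (15) of the series were not used.

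The test was limma 3.58.1 (trend and robust) in R 4.3.3 on log2(TPM + 1), for genes with at least 1 TPM in at least 4 libraries, with Benjamini-Hochberg adjustment over all genes tested and a threshold of 0.05. Fold changes on this scale understate the change of low genes. Tumour comparisons shared 1 estimate of spread over 20 libraries, and the healthy contrast weighted the 4 tumour groups equally. Correlations used log2(TPM + 1) centred on group means. The fits were checked on simulated data. Alternatives were another pseudocount (0.1), no filter, median ratio scaling, quantile normalization, microRNA genes left out, only the groups compared, animal series as a term or alone, and each library left out. Promoter and microRNA sequences and gene positions came from RefSeq on GRCm38.p6.

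The genes, lists and tests were chosen with earlier results of these data known. All 10 genes are named. Of each other list up to 4 genes per comparison are named, called ones first and then by p, plus neighbours at the loci. Leaving out male luc replicate 3 and the scalings of the lists were added after values were seen, as were Ins2, Peg3os and Copg2.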

Additional observations from a re-analysis of the deposited data

Results flagged for a closer look

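Of 50 sets of 1 gene in 1 group, 5 held a library far from the others by Dixon's criterion, and chance gives about 1 in 20. Plagl1 accounted for 3 of them. It was 0.266 TPM in male luc replicate 3, low beside 14.4 to 22.7 in the other male luc tumours, and 47.5 TPM in luc replicate 3 of unstated sex, high in its group. It was also 0.660 TPM in healthy liver replicate 4, high beside the other healthy livers. Peg3 was 25.5 TPM in lucOS replicate 1, above the other lucOS tumours of unstated sex. Mest was 11.1 TPM in lucOS replicate 4, below the others of its group. Causes were not tested.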

How the results depend on the processing

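TPM hold no depth, so no counting error could be given, and 4 to 6 libraries a group limit the tests. No paired analysis was possible because the replicate numbers follow accession order and pair no samples. The 54 genes called for lucOS over luc in males became 34 with no filter on low values and 0 with only the groups compared. Leaving out 1 library each gave 0 to 578 for lucOS over luc in males, with 578 without male luc replicate 4, 0 without male lucOS replicate 2, 3 without male luc replicate 3, 6 without male lucOS replicate 1, 12 without male luc replicate 2, 18 without male lucOS replicate 4 and 114 without male lucOS replicate 3. It gave 0 to 1 for lucOS over luc of unstated sex and 0 to 1 for the interaction. Male over unstated sex gave 1488 (without male luc replicate 3) to 3045 in luc and 1863 (without male lucOS replicate 4) to 4792 in lucOS tumours. The tumour and healthy contrast gave 13794 to 14000 calls, split 11328 higher and 2658 lower as deposited, 6832 and 6354 after median ratio scaling, and 6772 and 5953 after quantile normalization. The male calls in lucOS tumours were split 2342 higher and 1436 lower as deposited, 1450 and 2117 after median ratio scaling and 1299 and 2220 after quantile normalization. In luc tumours they were split 1382 and 1231 as deposited, 1097 and 1573 after quantile normalization, and 1795 and 959 with microRNA genes left out. The 40 higher and 14 lower calls for lucOS over luc in males became 21 and 28 after median ratio scaling and 33 and 28 after quantile normalization.

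None of the 10 genes was called in a tumour comparison under the settings of scaling, filter, pseudocount, microRNA genes, groups and series. Across these settings and the fits within 1 animal series, 16 differences changed sign, to values between -0.22 and -0.01, and the cause was not tested. After median ratio scaling Meg3 was -0.01 for lucOS over luc in males, -0.020 for male over unstated sex in luc, -0.11 in lucOS and -0.093 for the interaction, and Peg3 -0.086 for male in lucOS. After quantile normalization Meg3 was -0.014 for male in luc, -0.088 in lucOS and -0.073 for the interaction, and in lucOS Peg3 was -0.22, H19 -0.018 and Peg10 -0.041. Meg3 was -0.026 for male in luc with a pseudocount of 0.1, -0.017 for the interaction with microRNA genes left out, and for lucOS over luc of unstated sex -0.030 with animal series as a term and -0.20 within AL54, where Igf2 was -0.20 within AL51.

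Leaving out 1 library each, these ranges crossed 0. For lucOS over luc of unstated sex, Meg3 gave -0.094 to 0.37, Plagl1 -0.12 to 0.35 and Peg3 -0.19 to 0.38. In males, Dlk1 gave -0.49 to 1.45, H19 -0.44 to 0.15, Meg3 -0.66 to 0.89, Peg10 -0.090 to 0.63, Plagl1 -0.67 to 0.74 and Mest -0.54 to 0.089. For male over unstated sex in luc, Meg3 gave -0.79 to 0.76, Dlk1 -0.62 to 1.32 and Igf2 -0.042 to 0.36. In lucOS, Peg10 gave -0.074 to 0.46, Dlk1 -0.12 to 0.54, Meg3 -0.41 to 0.45, Peg3 -0.13 to 0.40 and Cdkn1c -0.17 to 0.56. For the interaction, Dlk1 gave -1.18 to 0.76, Meg3 -0.75 to 0.80, Plagl1 -0.77 to 0.64, Grb10 -0.64 to 0.013 and Cdkn1c -0.69 to 0.033. By limma, H19 was called for male in luc without luc replicate 3 (1.01, adjusted p 0.0406), and Mest for male in lucOS without lucOS replicate 4 (-1.12, adjusted p 0.0457) or male lucOS replicate 1 (-1.23, adjusted p 0.0377).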
